A study of Mus musculus with 16 samples.

Results

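The guanylate-binding proteins are a family of large interferon-inducible GTPases, related to the dynamins. The 9 mouse genes Gbp2, Gbp2b, Gbp3, Gbp4, Gbp5, Gbp6, Gbp7, Gbp8 and Gbp9 were chosen by symbol, and all 9 were found among the genes listed in each of the 8 deposited matrices. Their counts were read in cells taken from B16 melanomas of C57BL/6J mice.

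In macrophages these proteins assemble on vacuoles that hold pathogens and on cytosolic bacteria, and they help to open the vacuole and to feed inflammasomes, the complexes that activate caspase-1 and caspase-11. Their transcription is driven above all by interferon-gamma, with IRF1 among the factors that act on it, and type I interferon gives a weaker input. T cells and NK cells are the main sources of interferon-gamma in a tumour, so the family is often read as a trace of that cytokine.

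Mice carried subcutaneous tumours grown from 1000000 Bro4.1 B16 cells, either control or B2m-null (B2m codes for beta-2 microglobulin, which MHC class I needs at the cell surface). On days 6, 9 and 12 they received an abdominal injection of 100 µg of antibody, either an agonist of CD40 or a rat IgG2a isotype control, and tumours were taken on day 14. The 4 groups were control tumours under isotype (5 mice), control tumours under anti-CD40 (2 mice), B2m-null tumours under isotype (5 mice) and B2m-null tumours under anti-CD40 (4 mice). Group names below join the tumour and the antibody, as in control isotype or B2m-null CD40. The sample labels write the genotype as that of the mouse, the design text places it in the implanted cells, and the design text was followed. No label says whether the B2m-null line is 1 clone.

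CD45 beads enriched the cells, which carried 1 hashtag antibody for each mouse and were pooled within a group, with 1 droplet lane per pool. Control CD40 was 1 pool run on 2 technical lanes, so that pool and its group cannot be told apart. The labels list 3 hashtags per pool, but 6 of the 8 files hold 2, and the cells of any further mouse in those pools could not be assigned. Lanes held 45985739 to 99264875 unique molecular identifiers (UMIs, 1 per captured transcript). Hashtags and quality filters left 75529 cells of 16 mice, with 36.7% of the barcodes of B2m-null isotype replicate 1 assigned, the lowest of the lanes. Lanes shared 41 to 92 cell barcodes per pair, at most 0.623% of the smaller lane. B2m, the altered gene, stood at 924 to 1798 counts per 1000000 UMIs (CPM) in the melanoma cells of the 3 control pools and at 139 to 330 CPM in those of the 4 B2m-null pools, below every control pool.

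The 9 genes lie in clusters on 2 chromosomes (GRCm38, GENCODE annotation). On chromosome 3, all on the plus strand, lie Gbp5 at chr3:142493978-142522344, Gbp7 at chr3:142530342-142550149, Gbp3 at chr3:142560026-142573209, Gbp2b at chr3:142594847-142619179 and Gbp2 at chr3:142620602-142638008. On the minus strand of chromosome 5 lie Gbp8 at chr5:105014150-105139540, Gbp9 at chr5:105077630-105139539, Gbp4 at chr5:105115767-105139586 and Gbp6 at chr5:105270702-105293698. The gene models of Gbp4, Gbp8 and Gbp9 overlap, so reads there could be assigned to the wrong one of them. In the last 500 bases of the longest transcripts, where 3' reads fall, 74.6% of the 60-base windows of Gbp6 also occur in Gbp9, Gbp10 or Gm43302. Gbp4 shared 4.31% of its windows with Gbp6 or Gm43302, and Gbp5 shared 3.86% with Grem1 or Olfr678. No window was shared in the other 6 genes.

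The 250 bases before the RefSeq start of the 5 chromosome 3 genes (GRCm38.p6, plus strand, 5' to 3') are shown because the members moved together in the comparisons below. These 5 members matched in the RefSeq promoter table, and the promoters of Gbp4, Gbp6, Gbp8 and Gbp9 were not used here. Capitals mark 2 motifs searched on both strands: the letters TTCNNNGAA of the interferon-gamma-activated site (GAS), and the core of the interferon-stimulated response element spelled GAAA, any 2 bases and GAAA again (TTTC, any 2 bases and TTTC on the other strand), the kind bound by IRF1 and by the complex of type I signalling. The motifs may overlap one another.

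Gbp5, chr3:142496684-142496933: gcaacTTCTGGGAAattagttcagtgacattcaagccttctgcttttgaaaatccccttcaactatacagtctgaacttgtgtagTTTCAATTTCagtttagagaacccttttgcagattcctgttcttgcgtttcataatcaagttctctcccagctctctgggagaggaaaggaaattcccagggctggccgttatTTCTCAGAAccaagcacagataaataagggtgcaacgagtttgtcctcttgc
Gbp7, chr3:142530086-142530335: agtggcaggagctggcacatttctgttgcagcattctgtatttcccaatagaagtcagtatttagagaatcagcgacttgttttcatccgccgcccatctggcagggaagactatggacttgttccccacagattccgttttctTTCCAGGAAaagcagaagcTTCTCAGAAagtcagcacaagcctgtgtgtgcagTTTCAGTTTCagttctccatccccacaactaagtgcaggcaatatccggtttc
Gbp3, chr3:142559794-142560043: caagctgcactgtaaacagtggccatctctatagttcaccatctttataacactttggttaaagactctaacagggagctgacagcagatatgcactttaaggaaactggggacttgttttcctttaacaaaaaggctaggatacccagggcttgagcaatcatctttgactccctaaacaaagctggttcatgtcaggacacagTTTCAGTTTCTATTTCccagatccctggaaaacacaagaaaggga
Gbp2b, chr3:142594597-142594846: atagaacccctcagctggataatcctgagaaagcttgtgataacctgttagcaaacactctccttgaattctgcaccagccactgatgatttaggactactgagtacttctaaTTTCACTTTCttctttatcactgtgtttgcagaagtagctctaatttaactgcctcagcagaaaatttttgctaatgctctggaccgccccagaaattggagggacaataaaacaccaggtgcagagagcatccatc
Gbp2, chr3:142620413-142620662: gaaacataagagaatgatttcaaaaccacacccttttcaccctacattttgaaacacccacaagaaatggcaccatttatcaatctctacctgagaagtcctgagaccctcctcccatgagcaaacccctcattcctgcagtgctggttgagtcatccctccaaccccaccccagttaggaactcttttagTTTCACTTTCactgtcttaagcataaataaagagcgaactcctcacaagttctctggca

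Each of the 5 sequences holds the response element core, which is present in 2.98% of 32851 promoter windows of the same length. It begins 59 bases before the start in Gbp2, 137 in Gbp2b, 45 and 39 in Gbp3 (2 overlapping matches), 165 in Gbp5 and 53 in Gbp7. The GAS letters, present in 7.02% of promoters, occur in Gbp5, beginning 245 and 52 bases before the start, and in Gbp7, at 106 and 87 bases. The GAS match nearest the start has the same letters, TTCTCAGAA, in Gbp5 and Gbp7. Both motifs together are found in 0.332% of all promoters. A second RefSeq start of Gbp3 has neither. Distances are from the RefSeq starts, which differ from the GENCODE gene starts above in all but Gbp2b. The whole Gbp5 window and the Gbp2 match lie inside the GENCODE genes, which begin at chr3:142493978 and chr3:142620602. A match is a string of letters only, and binding was not measured.

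Levels were read as CPM in cell classes gated on marker genes, none of which is a Gbp gene, and the class names stand for those markers only. A 3' count is not scaled by length, so levels are compared between classes or groups for 1 gene and never between genes. In summed counts, fewer cells that express a gene and less RNA per cell cannot be told apart. In control isotype tumours the 9 members together were highest in monocytes and macrophages, at 907 CPM ± 168 (SD, n = 5 mice). Regulatory T cells followed at 774 CPM ± 66.8 (n = 5), gamma-delta T cells at 652 ± 167 (n = 3) and CD4 T cells at 643 ± 102 (n = 4). NK cells stood at 546 CPM ± 109 (n = 5), conventional dendritic cells at 523 ± 92.6 (n = 5), CD8 T cells at 494 ± 102 (n = 5), neutrophils at 475 ± 41.3 (n = 2) and plasmacytoid dendritic cells at 426 ± 276 (n = 4). No neighbours in that order differed by more than the larger of their SDs. With the stricter marker gate regulatory T cells stood at 1069 CPM, above monocytes and macrophages, so the top of the order depends on the gate. Members with more counts weigh more in a sum. Gbp2 gave 298 to 482 CPM of it in monocytes and macrophages and 85.05 to 201 CPM in regulatory T cells, so the order of the sum leans on Gbp2.

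The members did not share 1 order of classes. Gbp2, which coats parasite vacuoles, was highest in monocytes and macrophages, at 381 CPM ± 66.8 (SD, n = 5) against 227 ± 52.0 in conventional dendritic cells, a gap larger than either SD. Gbp2b, formerly called Gbp1, also led in monocytes and macrophages, at 26.5 CPM ± 13.9, and stood at 5.01 ± 3.77 in conventional dendritic cells and 0.641 ± 0.693 in CD8 T cells. Gbp5, which promotes NLRP3 inflammasome assembly, was highest in conventional dendritic cells, at 67.6 CPM ± 17.3, with neutrophils next at 61.4 ± 39.3 (n = 2) within the spread. The neutrophils of 1 of these mice held 22417 UMIs in 29 cells. Neutrophil Gbp5 rests on few counts, so its place in the order is not resolved. Among those dendritic cells Gbp5 was at 89.5 to 171 CPM in the mature cells and at 16.9 to 32.7 CPM in cDC1, against 24.4 to 54.5 CPM in monocytes and macrophages.

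Lymphocytes led for the other 6. Gbp3, at 113 CPM ± 54.4, Gbp7, at 173 ± 36.7, and Gbp6, at 70.6 ± 24.4, had their highest mean in regulatory T cells (n = 5). The next class lay within the spread in each case: monocytes and macrophages at 98.9 ± 13.9 for Gbp3 and 145 ± 27.2 for Gbp7, and CD4 T cells at 69.4 ± 16.3 for Gbp6. Gbp4, at 185 CPM ± 107, and Gbp8, at 50.9 ± 37.2, were highest in gamma-delta T cells (n = 3), and Gbp9, at 46.5 ± 17.9, in CD4 T cells (n = 4), again with the next class within the spread. In gamma-delta T cells Gbp8 rests on 2, 4 and 3 UMIs in the 3 mice, at or near the floor of 3 counts, so its place in the order is not resolved at this depth. In B2m-null isotype tumours the means of the summed members stood in another order. Regulatory T cells were at 640 CPM ± 192 (n = 2), or 1112 CPM with the stricter gate. CD8 T cells stood at 454 ± 48.5 (n = 4) and NK cells at 439 ± 44.6 (n = 2). Monocytes and macrophages came next at 369 CPM ± 165 (n = 5) and conventional dendritic cells stood at 302 ± 71.0 (n = 5). No neighbours among these classes differed by more than the larger of their SDs, so this order is not resolved. The regulatory T and NK cells also came only from the 2 mice of pool 2, and the monocytes and macrophages from all 5 mice.

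**Figure D1:**
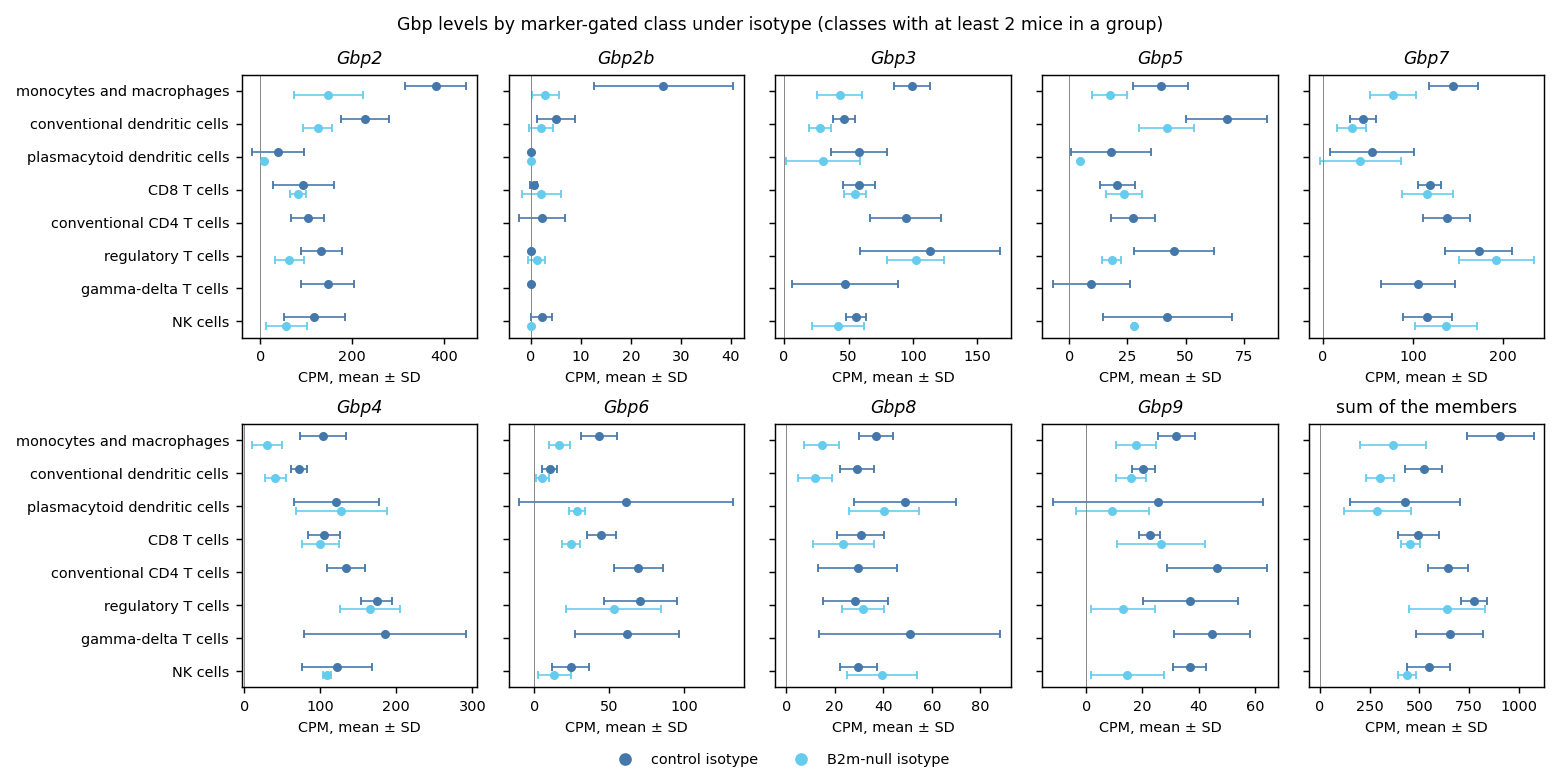
Mean CPM (x axis, ± SD over mice) of each member and of their sum by marker-gated class (y axis) in control isotype (dark blue) and B2m-null isotype (light blue) tumours, for classes with at least 2 mice in a group. For the sum, the gap between the groups is widest in monocytes and macrophages, at 907 CPM in control and 369 CPM in B2m-null tumours, and the bars of the CD8 and regulatory T cells overlap.

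Some rare classes carried high levels under CD40, which were not tested. In control CD40, 92 fibroblasts gave 3153 and 2832 CPM for the summed members in the 2 mice, above monocytes and macrophages at 1113 and 1188 CPM. The fibroblasts of 2 B2m-null CD40 mice were lower, at 1473 and 456 CPM from 30 and 20 cells. No isotype mouse had at least 20 fibroblasts, so their level without CD40 is not known and these values are not tied to CD40. In B2m-null CD40 the 3 mice with at least 20 neutrophils stood at 4542, 1789 and 1488 CPM, against 623 and 53.3 CPM in 2 B2m-null isotype mice. These 2 isotype mice held 61 and 29 neutrophils, at a group median of 909 UMIs per cell, so 53.3 CPM rests on few counts. Melanoma cells stood at 488 and 535 CPM in the 2 control CD40 mice, below monocytes and macrophages, and at 213 CPM in the 1 control isotype mouse with at least 20 such cells.

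The first comparison asked how the family differed between B2m-null and control tumours under isotype, and monocytes and macrophages were the largest set, with 36870 cells over all mice and 849 to 6629 per mouse. All 9 members were lower in B2m-null tumours (edgeR quasi-likelihood test, adjusted p under 0.05), with adjusted p from 0.00680 to 0.0355. Over the 12708 genes tested, 5.75% were called lower. The median log2 fold change was -1.34 for the members and 0.004 for all genes. The extremes were Gbp2b, which fell by 3.21 on the log2 scale, and Gbp9, which fell by 0.90.

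Gbp2 stood at 388, 482, 382, 355 and 298 CPM in the 5 control isotype mice and at 129, 120, 155, 270 and 65.9 CPM in those of B2m-null isotype. The groups did not overlap, and B2m-null isotype pool 2 mouse 1, at 270 CPM, came closest to the control range. Gbp2 fell by 1.42 ± 0.29 (SE) on the log2 scale (edgeR adjusted p = 0.0108). Gbp2b, which is recruited to Toxoplasma vacuoles, stood at 47.5, 20.1, 29.9, 25.3 and 9.78 CPM in control isotype and at 0.404, 3.55, 3.60, 6.83 and 0.266 CPM in B2m-null isotype. It fell by 3.21 ± 0.69 (edgeR adjusted p = 0.0144). Its 2 lowest values rest on 2 and 8 UMIs.

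Gbp4 is a chromosome 5 member that has been described as a brake on IRF7. It stood at 132, 125, 120, 66.8 and 75.3 CPM in control isotype and at 24.7, 22.0, 31.2, 61.3 and 9.70 CPM in B2m-null isotype, without overlap, and fell by 1.82 ± 0.41 on the log2 scale (edgeR adjusted p = 0.0167). Gbp3, Gbp6 and Gbp8 did not overlap either, with highest B2m-null values of 67.1, 25.7 and 27.0 CPM below lowest control values of 87.0, 29.9 and 27.7 CPM. In all, 6 of 9 members lay lower without overlap, against 3.05% of all genes tested. Gbp3, Gbp6 and Gbp8 fell by 1.26, 1.43 and 1.34, with edgeR adjusted p of 0.00680, 0.0122 and 0.00918.

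Gbp5, Gbp7 and Gbp9 overlapped between the groups. Gbp7, which has been tied to the oxidative response to ingested bacteria, stood at 160, 178, 151, 110 and 125 CPM in control isotype and at 66.5, 83.8, 76.9, 117 and 47.2 CPM in B2m-null isotype. It fell by 0.95 ± 0.20 (edgeR adjusted p = 0.0114), and Gbp5 by 1.25 ± 0.34 (adjusted p = 0.0330). Gbp9 stood at 25.1 to 42.3 CPM in control isotype and at 8.54 to 28.3 CPM in B2m-null isotype (edgeR adjusted p = 0.0355). In all 9 members the highest B2m-null isotype mouse was pool 2 mouse 1 and the lowest was pool 2 mouse 2, which came from the same lane.

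**Figure D2:**
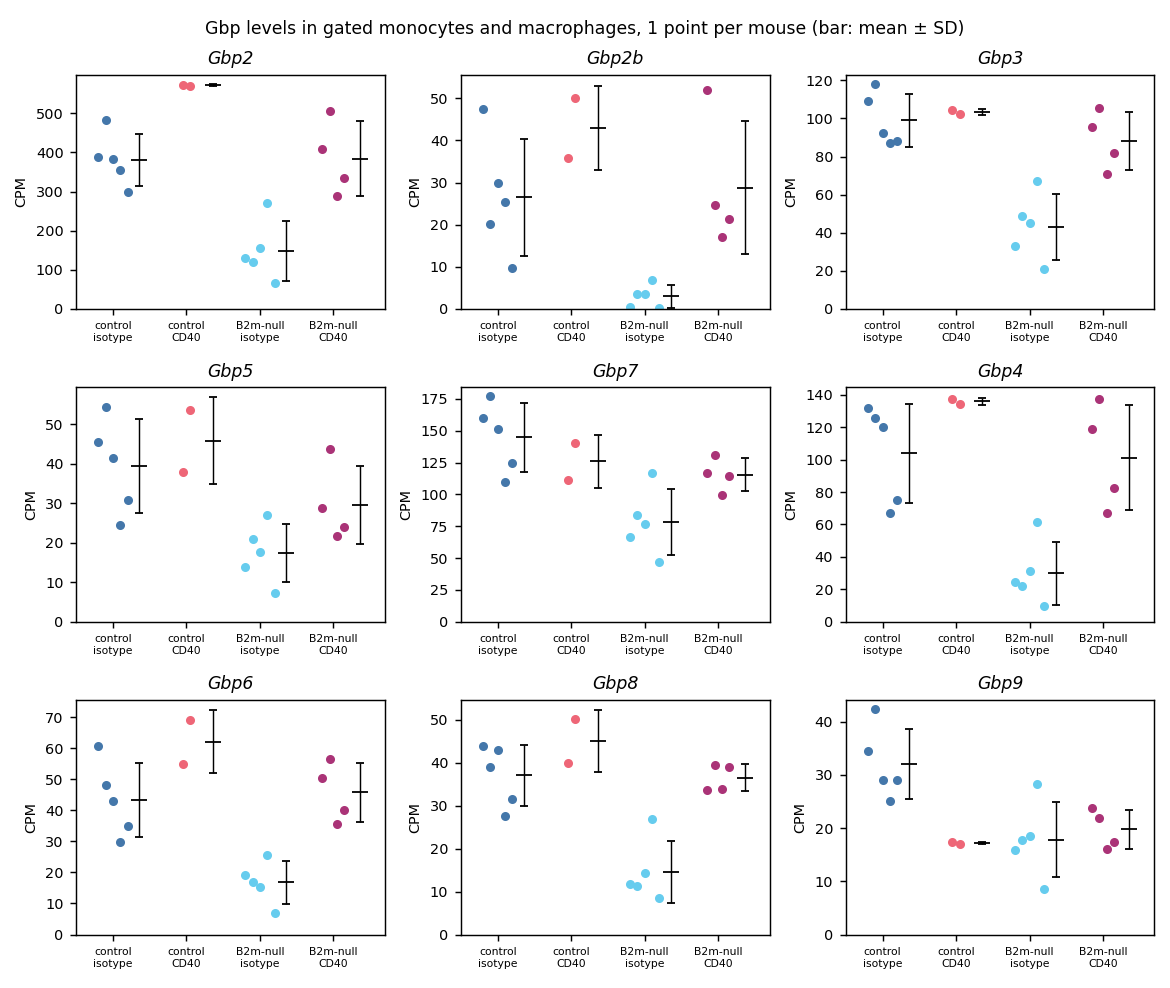
CPM (y axis, from 0) of the 9 members in gated monocytes and macrophages, 1 point per mouse in each of the 4 groups (x axis), with the group mean ± SD as the bar to the right. The B2m-null isotype mice have the lowest group mean in each member except Gbp9, which is as low in control CD40, and lie between 65.9 and 270 CPM for Gbp2, while the B2m-null CD40 mice, at 288 to 507 CPM for Gbp2, overlap with the control isotype mice in each member except Gbp9.

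The calls in this comparison rested on the first pools. Without B2m-null isotype replicate 1, which leaves 2 B2m-null mice, 0 of 9 members were called by edgeR, with a median log2 fold change of -1.20, and 0.416% of all genes. Without control isotype replicate 1, 0 members were called, with a median of -1.01, and 0.118% of all genes. Without B2m-null isotype pool 2 mouse 1, all 9 were called, with a median of -1.77. Tested apart, macrophages and the other cells of the set gave 9 calls. Classical monocytes, gated on Chil3, Vcan and similar genes, gave 2, with a median of -1.03. The share of all genes called is not given for the fit without pool 2 mouse 1 or for the fits apart. Their counts are not set against a background.

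Gbp2 in classical monocytes stood at 753, 866, 840, 530 and 622 CPM in control isotype and at 179, 266, 378, 428 and 214 CPM in B2m-null isotype, without overlap. Classical monocytes made up 6.12% to 18.1% of the monocyte and macrophage set in control isotype mice and 3.18% to 17.3% in B2m-null isotype mice, with 17.3% in pool 2 mouse 1, the mouse with the highest Gbp levels of its group. The 10 T cell markers were all detected in the set, at a summed 10.3 to 25.6 CPM in control isotype and 5.21 to 32.7 CPM in B2m-null isotype, against 3994 to 4377 CPM in CD8 T cells of control isotype. The 8 NK markers summed to 30.0 to 62.2 CPM and 10.9 to 28.8 CPM. The part of these markers in the result was not tested.

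Anti-CD40 in B2m-null tumours was compared next. In monocytes and macrophages 8 of the 9 members rose (edgeR adjusted p under 0.05), where 18.6% of all genes tested were called higher. The median log2 fold change was 1.48 for the members and -0.026 for all genes. This comparison shares its isotype mice with the one before, so the 2 sets of values are not independent.

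Gbp2 stood at 408, 507, 288 and 335 CPM under CD40 in 4 mice, each above the 5 B2m-null isotype mice, and rose 2.99-fold, a log2 change of 1.58 ± 0.30 (SE, edgeR adjusted p = 0.00122). Gbp2b stood at 52.0, 24.8, 17.2 and 21.2 CPM, again above every isotype mouse, and had the largest rise of the members, with a log2 change of 3.45 ± 0.71 (edgeR adjusted p = 0.00214). Gbp4 stood at 119, 137, 67.1 and 82.2 CPM without overlap and rose by 1.93 ± 0.42 (edgeR adjusted p = 0.00307). In all 3 genes both mice of pool 1 stood above those of pool 2.

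Gbp8 had the smallest adjusted p of the members. It stood at 33.7, 39.5, 33.8 and 38.9 CPM under CD40 and at 11.7, 11.4, 14.4, 27.0 and 8.47 CPM under isotype, a log2 change of 1.48 ± 0.28 (edgeR adjusted p = 0.000938). Gbp3 and Gbp6 did not overlap either and rose by 1.25 and 1.67 (edgeR adjusted p = 0.00128 and 0.00106). Ranges of 6 of 9 members lay higher without overlap, against 6.02% of all genes. Gbp5 and Gbp7 overlapped with isotype and rose by 1.00 and 0.78 (edgeR adjusted p = 0.0371 and 0.00944).

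Gbp9, one of the members seen at parasite vacuoles, was the exception. It stood at 23.8, 21.9, 15.99 and 17.4 CPM under CD40 and at 15.97, 17.8, 18.4, 28.3 and 8.54 CPM under isotype, with a log2 fold change of 0.35 ± 0.27 (edgeR adjusted p = 0.323). Without B2m-null isotype replicate 1, 5 members were called, with a median of 1.26, and without B2m-null isotype pool 2 mouse 1 all 9 were called. Classical monocytes apart gave 5 calls and the other cells of the set 8. No share of all genes is given for these left-out and separate fits, so their counts are not set against a background. Classical monocytes were 4.56% to 8.74% of the set in B2m-null CD40, and the summed T cell markers stood at 17.8 to 30.0 CPM. All 9 neutrophil markers were detected, and their sum was 103 to 316 CPM in B2m-null CD40 against 31.7 to 72.1 CPM in B2m-null isotype, without overlap. The part of these markers in the rise was not tested.

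In control tumours, anti-CD40 gave no called member in monocytes and macrophages, with edgeR and with DESeq2, where 21.6% of all genes were called by edgeR in either direction. The median log2 fold change of the members was 0.44 against -0.015 for all genes, adjusted p ran from 0.113 to 0.905, and 1 member had an unadjusted p under 0.05, as did 35.0% of all genes. Only 2 mice of 1 pool were treated. Gbp2 stood at 574 and 571 CPM, above all 5 isotype mice, and Gbp4 at 138 and 135 CPM, also above them, with log2 fold changes of 0.72 ± 0.36 and 0.52 ± 0.49 (edgeR adjusted p = 0.176 and 0.486).

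Gbp9 ran the other way, at 17.3 and 17.0 CPM against 34.6, 42.3, 29.1, 25.1 and 29.1 CPM under isotype, without overlap, with a log2 fold change of -0.75 ± 0.33 (edgeR adjusted p = 0.113). The other 6 members overlapped. Over all genes tested, 12.9% lay higher without overlap and 31.1% lower, against 2 and 1 of the 9 members, so these separations are not read as changes. Fitting only the 2 groups gave 2 called members. Leaving out either mouse of B2m-null isotype pool 2, which enter this test through the shared spread, gave 1 called member, and leaving out both gave 3. The share of all genes called in these refits is not given, so their counts are not read as above the background. Classical monocytes were 1.01% and 2.13% of the set in control CD40, below every other mouse, and the summed T cell markers, at 36.6 and 53.5 CPM, were above every other mouse. The 8 melanoma markers were also above every other mouse, at 980 and 1088 CPM against 187 to 422 CPM in control isotype, and the neutrophil markers stood at 155 and 267 CPM against 48.3 to 136 CPM. The 8 mature dendritic cell markers were lower than in control isotype without overlap, at 86.7 and 90.8 CPM against 140.4 to 190 CPM, and so were the NK markers, at 17.7 and 25.9 CPM against 30.0 to 62.2 CPM. Their part in these values was not tested.

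Under CD40 the genotypes gave no called member in this set, with edgeR and with DESeq2, where 11.6% of all genes were called by edgeR. No member had an unadjusted p under 0.05, against 3680 of the 12708 genes tested. Log2 fold changes of B2m-null against control ran from -0.64 (Gbp5) to 0.21 (Gbp9), with a median of -0.41 and adjusted p from 0.330 to 0.83. Gbp2 and Gbp8 were lower in all 4 B2m-null mice than in both control mice, at 288 to 507 against 571 and 574 CPM, and at 33.7 to 39.5 against 40.0 and 50.2 CPM. Such a separation was seen in 2 of 9 members and in 22.7% of all genes tested, so it is not read as a change.

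The difference between the 2 CD40 effects was tested as an interaction. All 9 log2 differences were positive, with a median of 1.04 and adjusted p from 0.0707 (Gbp3) to 0.459 (Gbp5). None was called by edgeR, where 20% of all genes were, while 5 had an unadjusted p under 0.05, against 34.2% of all genes, and DESeq2 called 3, against 21.4% of all genes. The count depended on single mice: edgeR called 8 without B2m-null isotype pool 2 mouse 1, 2 without pool 2 mouse 2 of that group and 6 without both. No share of all genes is given for these refits, so the counts are not set against a background. The CD40 effect is therefore not shown to differ between the tumours in the full set of mice, although 8 members passed in one and none in the other.

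**Figure D3:**
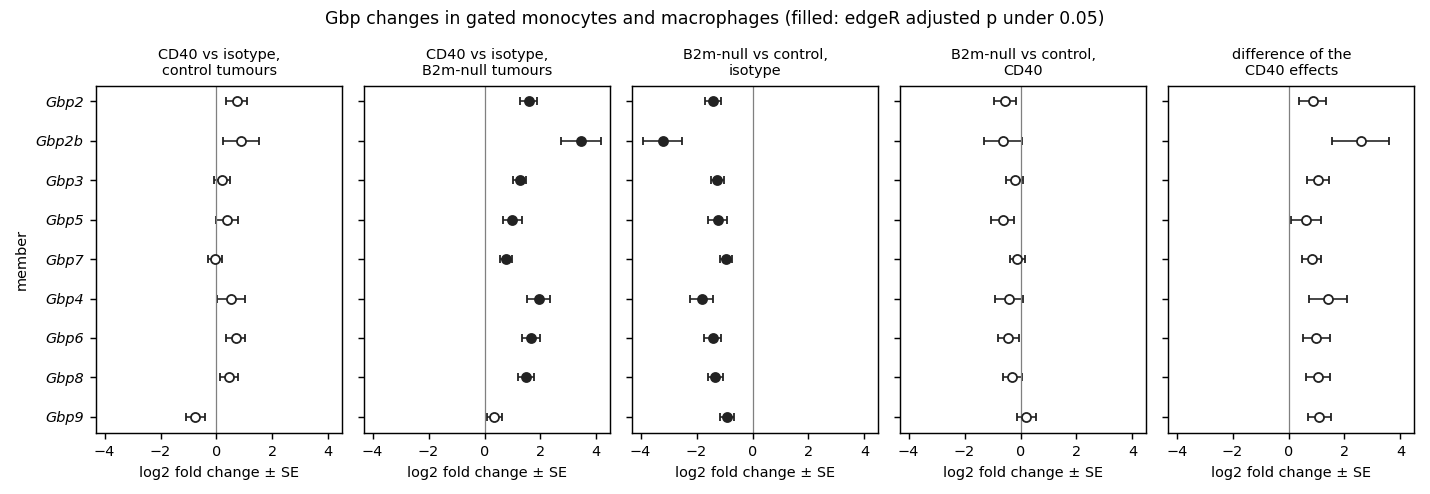
Log2 fold change ± SE (x axis) of the 9 members (y axis) in monocytes and macrophages for the 4 comparisons and for the difference of the CD40 effects, with filled points at an edgeR adjusted p under 0.05. All 9 points are filled and below 0 for B2m-null against control under isotype, 8 are filled and above 0 for CD40 in B2m-null tumours, and no point is filled in the other panels.

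CD8 T cells were tested in 8 members, since Gbp2b had too few counts. Under anti-CD40 in control tumours Gbp4, Gbp6 and Gbp8 rose, where 12.5% of all 10420 genes were called higher. All 3 lie on chromosome 5, where the gene models of Gbp4 and Gbp8 overlap. Gbp4 also shares 4.31% of its 3' windows with Gbp6 or Gm43302, so these calls may not be of fully separate counts. Gbp4 stood at 94.9, 106, 97.4, 86.0 and 139 CPM in control isotype and at 164 and 246 CPM in control CD40, without overlap, a log2 change of 1.01 ± 0.19 (SE, edgeR adjusted p = 0.000902). Gbp8 rose by 0.97 ± 0.28 (adjusted p = 0.0161) without overlap and Gbp6 by 0.77 ± 0.21 (adjusted p = 0.0111) with overlap, both by edgeR. With Gbp9, 3 of the 8 members lay higher without overlap, against 21.4% of all genes. The median was 0.66 for the 8 members and 0.009 for all genes. The refits below are given without the share of all genes called in each, so their counts are not set against a background. Without control CD40 mouse 2, 0 members were called, without control isotype replicate 1, 1 was, and without B2m-null CD40 replicate 1, 5 were. With the lane as the unit, where this group is 1 sample, 0 were called, with each cell thinned to 1000 UMIs, 1 was, and with no filter on low counts or only the 2 groups, 5 were.

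Anti-CD40 in B2m-null tumours gave 2 called members in CD8 T cells, Gbp6 and Gbp3, where 5.93% of all genes were called higher. Gbp6 stood at 22.0, 27.9, 31.1 and 17.5 CPM under isotype and at 44.2, 53.9, 45.7 and 44.9 CPM under CD40, without overlap, a log2 change of 0.97 ± 0.25 (edgeR adjusted p = 0.0188). Gbp3 stood at 51.2, 67.8, 51.8 and 49.1 CPM under isotype and at 90.2, 104, 57.9 and 61.2 CPM under CD40. It overlapped, with the 2 high values in pool 1, and had a log2 change of 0.67 ± 0.21 (edgeR adjusted p = 0.0493). Gbp6, Gbp2 and Gbp8 lay higher without overlap, 3 of 8 members against 4.82% of all genes. For the refits below no share of all genes is given. The count of called members ran from 0 to 3 when a mouse or pool was left out. It was 0 without B2m-null isotype replicate 1, pool 1 mouse 3 or pool 2 mouse 2 and without control isotype replicate 1. It was also 0 in thinned cells, with at most 5% mitochondrial counts, with the stricter gate and with the lane as the unit, 1 with DESeq2, RLE scaling, at least 50 cells per mouse or only the 2 groups, and 6 with no filter on low counts. It was 1 as well without either control CD40 mouse, B2m-null isotype pool 1 mouse 1, B2m-null CD40 replicate 2 or its mouse 2, control isotype replicate 2, or mouse 1 or 2 of either control isotype pool.

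The genotype comparisons gave no called member in CD8 T cells by edgeR or DESeq2. Under isotype 0.317% of all genes were called and 1 member, Gbp6, had an unadjusted p under 0.05, against 13.2% of all genes, with a log2 fold change of -0.76 ± 0.25 (edgeR adjusted p = 0.167). Under CD40 4.03% of all genes were called, and 2 of 8 members had an unadjusted p under 0.05, against 18.2% of all genes. The CD40 effects differed in 6.86% of all genes and in no member by edgeR or DESeq2, with 0 at an unadjusted p under 0.05, against 2254 of 10420 genes. In this set the 14 monocyte and macrophage markers varied with group, with medians of 493 CPM in control isotype, 608 in control CD40, 595 in B2m-null isotype and 822 in B2m-null CD40. The 8 mature dendritic cell markers were lower under CD40 without overlap, at 162 to 177 CPM against 474 to 535 CPM in control tumours and at 130 to 163 CPM against 445 to 1317 CPM in B2m-null tumours. The melanoma markers had a median of 452 CPM in control CD40 (184 and 720 CPM) and 18.6 CPM in control isotype (15.6 to 479 CPM). The part of these 3 lists in the CD8 T cell results was not tested.

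Conventional dendritic cells of B2m-null tumours, joined from cDC1, cDC2 and mature cells, held 21 to 30 cells per mouse under CD40, and control CD40 had 1 mouse with enough cells, so its comparisons were not made. There Gbp2 and Gbp3 rose, where 2.2% of all 7989 genes were called higher. Gbp2 stood at 113, 160, 140, 135 and 76.1 CPM under isotype and at 683, 767, 290 and 156 CPM under CD40, a log2 change of 1.87 ± 0.39 (SE, edgeR adjusted p = 0.0225). The 2 mice of pool 1 were far above the others, and the lowest CD40 mouse lay within the isotype range. Gbp3 stood at 17.8, 35.1, 29.2, 37.0 and 19.7 CPM under isotype and at 71.5, 164, 69.4 and 39.1 CPM under CD40, a log2 change of 1.38 ± 0.32 (edgeR adjusted p = 0.0168). It was the 1 member of 9 that lay higher without overlap, against 2.44% of all genes. Both calls were lost with the lane as the unit and in thinned cells, and 1 was left with the stricter gate, at most 5% mitochondrial counts or only the 2 groups.

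Without B2m-null CD40 replicate 1 or B2m-null isotype replicate 1, 0 members were called in dendritic cells, and without B2m-null CD40 replicate 2, 5 were. Leaving out B2m-null isotype replicate 2 or any one of 3 B2m-null CD40 mice (both of pool 1 and mouse 1 of pool 2) left 1. Between genotypes under isotype, 0 of 9 members were called by edgeR or DESeq2, where 0.663% of all genes were called by edgeR. In that comparison 5 members had an unadjusted p under 0.05, against 10.9% of all genes, and all 9 log2 fold changes were negative, with a median of -0.87. Gbp2, Gbp4 and Gbp8 lay lower without overlap, 3 of 9 members against 2.34% of all genes. With no filter on low counts, at least 50 cells or only the 2 groups, 2 members were called, and 1 with the stricter gate. Without either B2m-null CD40 replicate, whose mice enter through the shared spread, 2 members were called. These refits and alternatives of dendritic cells are given without the share of all genes called in each. Their counts are not set against a background. Over all cells of a group, mature cells made up 49.3% of the dendritic cells in control isotype, 53.8% in B2m-null isotype and 54.5% in B2m-null CD40. By mouse the share was 75.9% and 85.7% in pool 1 of B2m-null CD40, whose mice had the high Gbp2, and 30.0% and 28.6% in pool 2, against 38.4% to 67.4% in B2m-null isotype mice. The part of this make-up in the rise of Gbp2 and Gbp3 was not tested. In control isotype they held more of the summed members than cDC1, at 748 to 969 CPM against 208 to 498 CPM in the 5 mice.

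**Figure D4:**
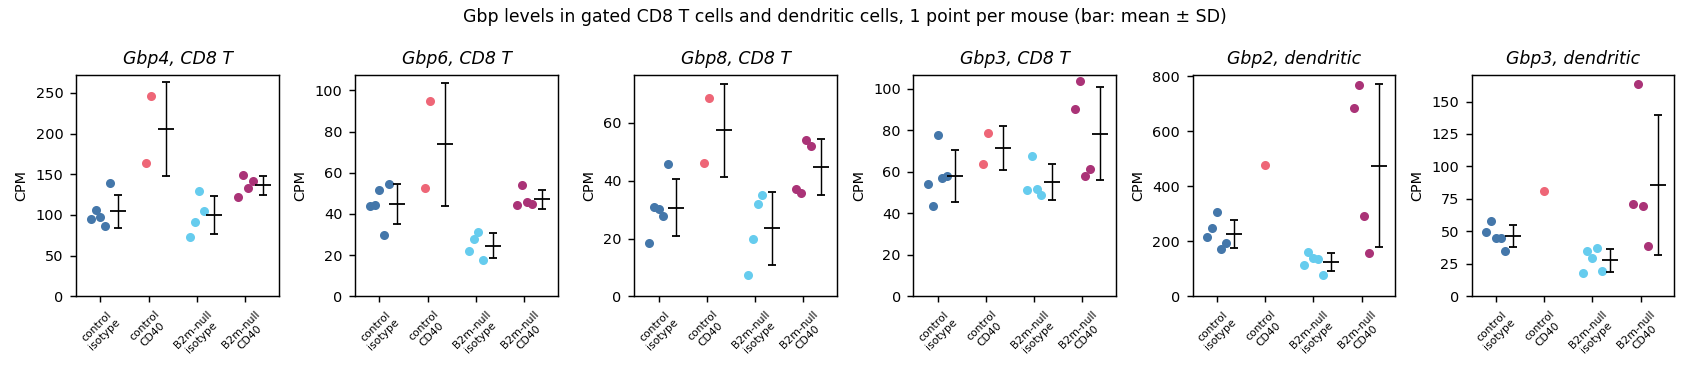
CPM (y axis, from 0) of Gbp4, Gbp6, Gbp8 and Gbp3 in CD8 T cells and of Gbp2 and Gbp3 in conventional dendritic cells, 1 point per mouse and group (x axis), with mean ± SD as bars where a group has at least 2 mice. Gbp6 in CD8 T cells is lowest in B2m-null isotype, at 17.5 to 31.1 CPM, and dendritic Gbp2 spans 156 to 767 CPM in B2m-null CD40.

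CD4 T cells, regulatory T cells and NK cells gave no called member in any comparison that could be made, by edgeR or by DESeq2. In CD4 T cells 6 members were tested. For CD40 in control tumours 4.36% of all genes were called and 0 members had an unadjusted p under 0.05, against 982 of 5350 genes. For genotype under CD40, 1.08% of all genes were called and 1 member had such a p, as did 12.9% of all genes. In each of these comparisons 1 of the 6 members lay lower without overlap and 0 higher. Of 5350 genes, 742 and 1086 lay lower, so these separations are not read as changes. For CD40 in control tumours, 1 member was called without B2m-null CD40 replicate 1 or its mouse 2, with no share of all genes given for these refits. In regulatory T cells 7 members were tested between genotypes under isotype. There 0.359% of all genes were called, and 2 members had an unadjusted p under 0.05, against 7.43% of all genes. Of the 7, 2 lay lower in B2m-null isotype without overlap and 0 higher, against 260 and 251 of 4739 genes. Gbp2 stood at 40.7 to 84.8 against 85.05 to 201 CPM, and Gbp5 at 15.3 to 21.2 against 26.0 to 58.2 CPM. The B2m-null isotype side was 2 mice of pool 2, so pool and group cannot be told apart there. In NK cells 5 members were tested in all 5 comparisons, with 0 at an unadjusted p under 0.05 in each, against 228 to 696 of 4222 genes. All genes were called there at 4.0% for CD40 in control tumours, 2.75% for CD40 in B2m-null tumours, 0.189% and 2.23% for genotype under isotype and CD40, and 1.3% for the difference. For CD40 in control tumours 1 of the 5 NK members lay lower without overlap, against 582 of 4222 genes. For CD40 in B2m-null tumours 1 lay higher and 1 lower, against 337 and 640 genes. In the genotype comparisons 0 lay apart, and none of these NK counts is read as a change. B2m-null isotype NK cells also came from 2 mice of pool 2 only. The CD4, regulatory T and NK sets held 24 to 298 cells per mouse, so changes of the size seen in macrophages could be missed.

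Over the 16 mice, the members of the monocyte and macrophage set varied together. The 36 pairs had a median Pearson r of 0.924 (from 0.532 to 0.985) on log2(CPM + 1), and a median of 0.887 once each group's mean was subtracted. Gbp2 and Gbp4, on different chromosomes, had the highest r, 0.985. Gbp9 stood apart, with a median r of 0.626 to the other members over all mice, while pairs without it had a median of 0.933. Within groups Gbp9 had a median r of 0.905, and Gbp2b the lowest of the members, 0.683. The mice share lanes, and depth and cell make-up moved between mice, so these values describe and are not tested. Some chromosome 5 members may also share counts, since the gene models of Gbp4, Gbp8 and Gbp9 overlap and Gbp6 shares 3' windows with Gbp9.

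**Figure D5:**
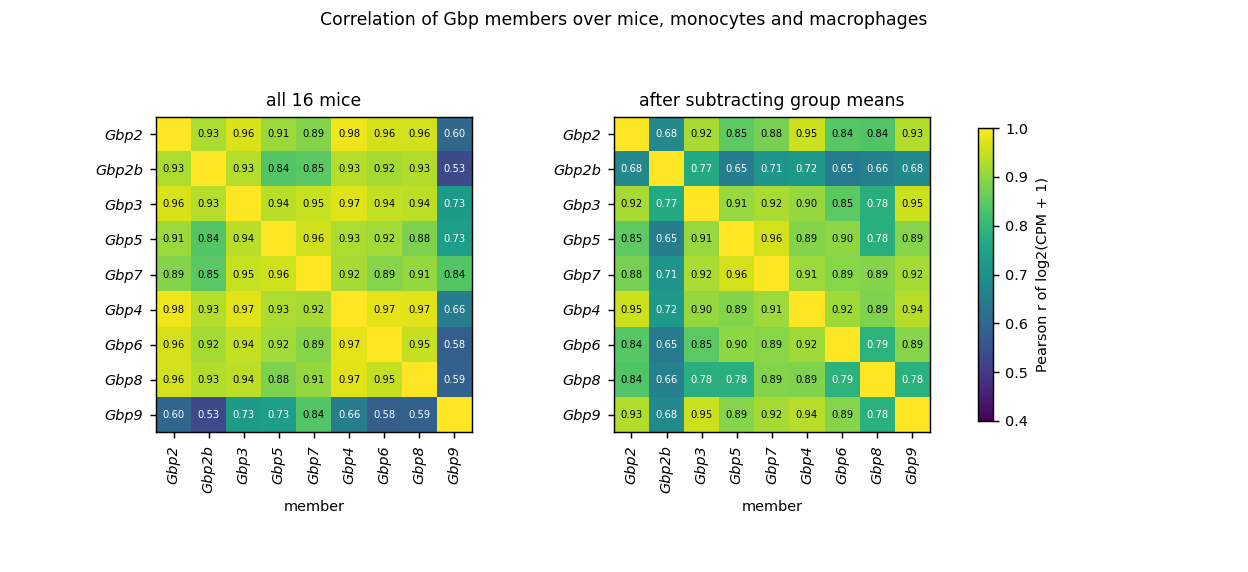
Pearson r of log2(CPM + 1) between each pair of members (both axes) over the 16 mice in monocytes and macrophages, before (left) and after (right) each group's mean was subtracted. On the left the Gbp9 row is the low one, from 0.532 to 0.839, and on the right it is the Gbp2b row.

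Among 7566 genes with a mean of at least 10 CPM in the set, the 5 whose log2 level tracked the summed members most closely over the 16 mice were Irf1 (r = 0.986), Iigp1 (0.985), Psmb9 (0.977), Socs1 (0.974) and Calhm6 (0.967). Irf1 encodes a transcription factor induced by interferon-gamma, Iigp1 an immunity-related GTPase, Psmb9 a subunit of the immunoproteasome and Socs1 an inhibitor of JAK kinases.

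The surrounding pathway was read in the same fits of monocytes and macrophages. Irf1 rose by 1.28 on the log2 scale under CD40 in B2m-null tumours (edgeR adjusted p = 0.00240) and fell in B2m-null against control tumours under isotype, with a log2 change of -1.45 (edgeR adjusted p = 0.00611). In control tumours under CD40 Irf1 had a log2 fold change of 0.47 (edgeR adjusted p = 0.333). The receptor genes moved less: Ifngr1 fell, with a log2 change of -0.30 (edgeR adjusted p = 0.0390), and Ifngr2 stood at 0.09 (adjusted p = 0.347), both for CD40 in B2m-null tumours.

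Ifng, the ligand, was rare in the monocyte and macrophage set, at 0.166 to 3.81 CPM. The counts were higher under CD40 in control and B2m-null tumours (log2 changes of 2.15 and 2.11, edgeR adjusted p = 0.00553 and 0.00682), where the median of the summed T cell markers in the set also went from 15.83 to 45.03 CPM and from 8.548 to 19.95 CPM. The part of the T cell markers in these counts was not tested, and the counts are not assigned to a cell type. CD8 T cells made up a median of 5.95% of the assigned cells of a mouse in control isotype and 23.6% in control CD40. In B2m-null tumours the medians were 3.14% under isotype and 21.8% under CD40. Levels within the class do not count its cells, so they do not give the total Ifng of a tumour. Within CD8 T cells Ifng was not called in any comparison by edgeR. It stood at 362 to 480 CPM in control isotype, 298 and 347 CPM in control CD40, and 192 to 474 CPM in B2m-null CD40. In B2m-null isotype it stood at 256, 160 and 210 CPM in 3 mice and at 2142 CPM in pool 2 mouse 2, the mouse with the lowest macrophage levels of all 9 members. Ifng rose in CD4 T cells under CD40 in control tumours, by 4.34 ± 0.33 (edgeR adjusted p = 1.03e-07). In NK cells under CD40 in B2m-null tumours it rose by 1.22 ± 0.31 (edgeR adjusted p = 0.0324). The CD40 side of the CD4 test was 2 mice of 1 pool, and the isotype side of the NK test 2 mice of pool 2. Pool and group cannot be told apart on those sides. In CD4 T cells of B2m-null tumours, where no test could be made, Ifng stood at 400, 338 and 496 CPM in 3 CD40 mice. It was at 41.6 CPM in the 1 isotype mouse.

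Of 7 immunity-related GTPases tested, 6 rose under CD40 in B2m-null tumours (median 1.17) and 5 fell in B2m-null against control tumours under isotype (median -1.27), and 1, Irgm2, rose under CD40 in control tumours. Over all genes, 18.6% were called higher, 5.75% lower and 11.4% higher in these comparisons, so the last count is near the background. Of 9 other interferon-gamma-inducible genes, among them the chemokines Cxcl9 and Cxcl10, the counts were 8, 7 and 2 in the same order and directions, with medians of 1.42, -1.11 and 0.27. Of 8 inflammasome partners, 5 rose under CD40 in B2m-null tumours, with Gsdmd and Casp1 at 1.18 and 1.07 (edgeR adjusted p = 4.1e-05 and 1.98e-05), 4 fell by genotype under isotype and 2 fell under CD40 in control tumours, with a median of -0.12, where 10.2% of all genes were called lower. The 14 genes of the type I interferon response gave 3 rises under CD40 in B2m-null tumours, a share near that of all genes, and 6 falls by genotype under isotype. Under CD40 in control tumours, 5 of the 14 fell, with a median of -0.66, where the median of the Gbp members was 0.44. For the difference of the CD40 effects, 6 of the 8 inflammasome partners and 8 of the 14 type I genes were called higher. So were 3 of the 9 other interferon-gamma-inducible genes, 0 of the 7 GTPases and no Gbp member, against 1259 of 12708 genes.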

How the data were processed

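The deposited matrices hold UMI counts per gene and cell barcode, made with Cell Ranger 3.0.0 per the file headers and against mm10 per the submitters' processing notes. Hashtag counts in the same files assigned cells to mice (at least 20 hashtag counts, mixture posterior of at least 0.9). Of 116552 barcodes, 9811 were removed as doublets of 2 hashtags, and doublets within 1 mouse remain. Cells with under 200 genes or over 10% mitochondrial counts were left out. Markers gated cells into 13 classes, and 4741 cells with T and myeloid markers together were set aside. Also outside the classes were 4655 other T cells, 167 cells that passed more than 1 gate and 21 mast cells and basophils. A further 10639 cells passed no gate. They were 14.7% of the cells in control isotype, 18.5% in control CD40, 12.5% in B2m-null isotype and 8.44% in B2m-null CD40. The part of these cells in the comparisons was not tested.

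Counts were summed per mouse and class, with at least 20 cells, and the technical lanes of control CD40 were summed. edgeR 4.0.16 (TMM, filterByExpr, robust quasi-likelihood F-test, 4 groups in 1 fit) tested all genes, with Benjamini-Hochberg adjustment over all genes tested. SEs are the log2 fold change divided by the square root of F. The fit was also run on simulated counts, and the outcome is not given here. CPM was the deposited counts per 1000000 UMIs of the class in that mouse, with a pseudocount of 1 for correlations. The p-values measure the spread between mice, and mice of 1 pool share a lane. All members were reported, with per-mouse values for those the results turn on. Of other genes, Ifng, its receptors and Irf1 were always named, with at most 3 called genes of each other list. A further item is not reported here. Members and lists were chosen with earlier results of these data known. The alternatives were RLE scaling, DESeq2 1.42.0, no count filter, at least 50 cells, at most 5% mitochondrial counts, a stricter gate, the lane as the unit, 1000 UMIs per cell, 2-group fits, a replicate block and left-out mice or pools. Protein sequences were not used here.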

Additional observations from a re-analysis of the deposited data

Results flagged for a closer look

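Of 117 groups of 4 or 5 mice examined for a single mouse far from the others in 1 member and class, 9, or 7.69%, had one, and chance gives about 1 in 20. Control isotype pool 1 mouse 3 had the highest Gbp2 in CD8 T cells, 212 CPM against 74.6 CPM in the next mouse, and the highest Gbp2b in conventional dendritic cells, 11.7 against 4.06 CPM, from 8 and 6 UMIs. B2m-null isotype pool 1 mouse 3 was highest in CD8 T cells for Gbp3, 67.8 against 51.8 CPM, and for Gbp2b, 7.98 against 0.518 CPM. That Gbp2b value rests on 2 UMIs and the next on 1, under the floor of 3 counts. Gbp6 in CD8 T cells of B2m-null CD40 was 53.9 CPM in pool 1 mouse 2 and 45.7 CPM in the next mouse. In NK cells Gbp3 was 138 CPM in B2m-null CD40 pool 1 mouse 1 against 49.9 CPM in the next, and Gbp8 was lowest, at 16.5 CPM, in control isotype pool 1 mouse 2, against 30.8 CPM in the next. The last 2 are Gbp2b at 9.06 CPM in CD4 T cells of control isotype pool 2 mouse 1 and at 7.29 CPM in NK cells of B2m-null CD40 pool 2 mouse 2. Each of those rests on 1 UMI.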

How the results depend on the processing

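In monocytes and macrophages, the counts of called members stayed within 1.5 times the reported value under RLE scaling, no count filter, at least 50 cells, at most 5% mitochondrial counts, the stricter gate and the lane as the unit. The difference of the CD40 effects gave 3 with DESeq2, 1 in thinned cells and 1 in macrophages apart, against 0. Fitting only the 2 groups gave 2 for CD40 in control tumours (1 higher, 1 lower). Classical monocytes apart gave 5 for CD40 in B2m-null tumours and 2 for genotype under isotype. Left-out mice or pools gave 0 to 9 for genotype under isotype, 5 to 9 for CD40 in B2m-null tumours, 0 to 3 for CD40 in control tumours and 0 to 8 for the difference.

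For CD40 in B2m-null tumours, CD8 T cells (2 called) gave 1 with RLE scaling, DESeq2, at least 50 cells and 2-group fits, 6 with no filter, and 0 with at most 5% mitochondrial counts, the stricter gate, the lane as the unit and thinning. Left-out samples gave 0 to 3. Dendritic cells (2 called) gave 1 with at most 5% mitochondrial counts, the stricter gate and 2-group fits, and 0 with the lane as the unit and thinning, with 0 to 5 for left-out samples. For CD40 in control tumours, CD8 T cells (3 called) gave 5 with no filter and 2-group fits, 1 thinned and 0 by lane, with 0 to 5 for left-out samples, and CD4 T cells gave 0 to 1. For genotype under isotype, dendritic cells (0 called) gave 2 with no filter, at least 50 cells and 2-group fits, 1 with the stricter gate, and 1 each in cDC1 and mature cells apart, 2 alternatives chosen after seeing the data, with 0 to 2 for left-out samples. CD4 T cells gave 1 for genotype under CD40 with at least 50 cells. The causes were not tested. The counts of this section are given without the share of all genes called under each alternative, so they are not set against a background.

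Differences between pools 1 and 2 correlated weakly between groups (0.070, 0.131 and 0.155 over genes), and the main fits did not pair pools by number. With 1 difference per group, this cannot exclude that same-numbered pools were processed together. With the replicate block, CD40 in B2m-null tumours gave 4 members in CD8 T and 1 in dendritic cells, and genotype under isotype gave 7 in monocytes and macrophages and 2 in dendritic cells.

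Summed levels that moved by more than the spread were control CD40 macrophages (1213 CPM thinned), CD8 T cells of B2m-null isotype (511 stricter gate, 503 thinned), regulatory T cells of control isotype (1069 stricter, 876 thinned) and B2m-null isotype (1112 stricter), and NK cells of B2m-null isotype (377 by lane).

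In classical monocytes apart, log2 fold changes with the opposite sign were -0.174, -0.065, -0.157 and 0.035 for Gbp2, Gbp3, Gbp5 and Gbp7 (CD40, control tumours), -0.13 for Gbp9 (CD40, B2m-null), 0.158, 0.054 and -0.015 for Gbp6, Gbp8 and Gbp9 (genotype, CD40) and -0.38 for Gbp2b (difference). Gbp7 turned to 0.12 by lane for CD40 in control tumours, and ran from -0.281 to 0.265 over left-out samples, positive without control CD40 mouse 1, control isotype pool 1 mouse 2 or control isotype replicate 1. For genotype under CD40 it turned to 0.005 thinned and ran from -0.306 to 0.123, positive without control CD40 mouse 2.

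Leaving out a control CD40 mouse leaves 1 in that group, which is assumed to vary like the other groups. Depth limits the small classes most: dendritic, CD4 T, regulatory T and NK cells held as few as 21 cells in a mouse.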
